A study of Homo sapiens with 12 samples.

Results

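The regions described here are the stretches of chromatin that were listed when 22Rv1 cells received OSU-ERb-12 and enzalutamide together, that neither agent alone listed, and that lie away from the ends of genes. 22Rv1 is an established human prostate cancer line, and chromatin was profiled by ATAC-seq, in which a transposase cuts the DNA it can reach. A region was chosen by 2 criteria: it overlapped no enzalutamide and no OSU-ERb-12 region by 1 bp or more, and it did not lie within 1 kb of either end of a RefSeq protein-coding gene. Of the 6248 regions of the combination list 4181 met both (66.9%, exact 95% interval 65.7 to 68.1), out of 49496 regions in the 3 lists together. They are called combination-only distal regions below. The other combination regions were 517 combination-only regions at gene ends, 1094 regions away from gene ends that overlapped a single-agent region (called shared distal regions), and 456 that overlapped a single-agent region at gene ends.

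There were 12 samples in 4 groups of 3, all from the 1 line with the genotype label WT and all exposed for 6 h: OSU-ERb-12 plus enzalutamide, whose own labels give no doses, 1 µM enzalutamide, 100 nM OSU-ERb-12, and vehicle. The deposited data are 1 list of positions for each of the 3 drug treatments, on the hg38 build and without a value for any sample. The list assigned to OSU-ERb-12 carries the prefix WT, which the titles of the OSU-ERb-12 samples share and the labels do not explain, so every OSU-ERb-12 value, and the choice of the regions itself, rests on that match. The sources used here do not say whether a listed region was more or less accessible than with vehicle, and the text gives no direction. Since the lists hold no expression or accessibility levels, the identity of the cells could not be checked with marker genes, depth is unknown, and no comparison could be tested over samples. Intervals are exact 95% intervals for the counting of regions only, binomial for shares and Poisson for densities. Regions are not replicates, and a region absent from a list may still have changed.

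Enzalutamide is an antiandrogen used against prostate cancer, and OSU-ERb-12 acts on oestrogen receptor beta, a nuclear receptor that ESR2 encodes. Nuclear receptors bind mostly to enhancers, stretches of accessible DNA that can lie far from the gene they act on. In prostate cells the pioneer factors FOXA1 and HOXB13 are often found at such sites. Promoters, by contrast, lie at gene starts.

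No genome sequence was used, so letters can be shown only where a region falls in a 300-base window around an annotated start (250 bases before it, 50 after; RefSeq, GRCh38.p14). The rule removes the outermost ends of protein-coding genes but leaves starts inside genes and starts of noncoding genes. Of the 4181 regions 36 (0.861%) overlapped such a window, and 5 lay wholly inside one. These 5 are shown whole, each 5′ to 3′ on the strand of its gene, because they are the only combination-only distal regions whose full sequence was at hand. Capitals mark matches, on either strand, to 13 motifs that were searched.
ARID3C: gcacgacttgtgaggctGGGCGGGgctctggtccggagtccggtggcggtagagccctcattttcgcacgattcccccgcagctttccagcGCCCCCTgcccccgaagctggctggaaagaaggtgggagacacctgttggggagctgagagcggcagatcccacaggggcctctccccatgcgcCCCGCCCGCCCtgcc
BANP: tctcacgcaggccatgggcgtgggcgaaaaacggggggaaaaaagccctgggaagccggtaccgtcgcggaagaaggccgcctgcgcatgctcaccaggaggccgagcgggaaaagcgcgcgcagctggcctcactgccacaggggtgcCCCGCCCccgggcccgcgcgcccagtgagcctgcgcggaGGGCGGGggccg
LOC124903382: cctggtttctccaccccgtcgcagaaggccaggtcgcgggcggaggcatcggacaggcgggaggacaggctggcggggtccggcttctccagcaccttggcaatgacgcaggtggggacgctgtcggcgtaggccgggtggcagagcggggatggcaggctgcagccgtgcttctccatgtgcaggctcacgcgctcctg
LOC105370194: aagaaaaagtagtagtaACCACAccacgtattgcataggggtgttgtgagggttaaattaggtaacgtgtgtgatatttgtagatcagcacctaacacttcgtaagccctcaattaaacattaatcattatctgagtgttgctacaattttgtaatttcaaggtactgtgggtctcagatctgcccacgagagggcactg
PLCH1-AS1: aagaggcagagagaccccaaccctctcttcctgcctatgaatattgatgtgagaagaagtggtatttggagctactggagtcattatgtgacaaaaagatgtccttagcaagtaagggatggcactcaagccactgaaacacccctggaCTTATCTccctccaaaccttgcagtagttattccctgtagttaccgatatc

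The 5 sequences fall into a GC-rich and a GC-poor kind. The ARID3C region (chr9:34629101-34629300, minus strand) has 69.0% GC and 14 CpG, ends 35 bp before a start of this gene of the ARID family of DNA-binding proteins, and holds the SP/KLF letters and the CTCF core letters. It lies 200 bp from the nearest enzalutamide region. The BANP region (chr16:87951201-87951400, plus strand) has 73.5% GC and 24 CpG, ends 34 bp before a start of this gene of a DNA-binding protein, and holds the SP/KLF letters. Its nearest enzalutamide region is 136600 bp away and its nearest OSU-ERb-12 region 38300 bp. The region at the lncRNA gene LOC124903382 (chr14:100539101-100539300, plus strand) has 70.0% GC and 18 CpG and no match. The remaining pair belongs to lncRNA genes and is poorer in GC. LOC105370194 (chr13:46321801-46322000, minus strand) has 40.5% GC with the RUNX letters, and PLCH1-AS1 (chr3:155448951-155449150, plus strand), antisense to the phospholipase gene PLCH1, has 45.5% GC with the GATA letters.

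Over all 40 start windows that the 36 regions overlapped, 24 of lncRNA and 16 of protein-coding genes, the commonest motif was that of the SP and KLF factors, GGGCGGG, present in 40.0% against 33.0% of all 34943 windows. The letters AGAACA were in 17.5% of the 40 and 14.8% of all windows. RUNX (TGTGGT) gave 17.5% against 13.1%, the CTCF core (AGGGGGC) 17.5% against 14.3%, and AP-1 (TGANTCA) 12.5% against 7.72%. TEAD (GGAATG) gave 7.50% against 14.0%, ETS (CCGGAAG) 5.00% against 10.2%, the GATA factors (letters AGATAAG) 2.50% against 2.68% and the E-box (CACGTG) 2.50% against 7.23%. The forkhead letters TGTTTAC and the HOXB13 letters CCAATAAA were in none of the 40, and in 3.42% and 0.936% of all windows. The androgen-type palindrome (GNACA, 3 bases, then its reverse complement) and the oestrogen-type palindrome (GGTCA, 3 bases, then its reverse complement) were also in none, and in 0.389% and 0.0572% of all windows. A palindrome match can share letters with AGAACA. The counts are small, and each motif was sought in the whole 300 bases rather than in the listed region. A match is a description of letters and not a binding site. Of all 34943 windows 12894 were of lncRNA genes and 22049 of protein-coding genes, another mix than in the 40, so the shares are not like for like. Median GC was 60.3% in the 40 windows and 58.7% in all.

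A start site itself lay inside 14 of the regions. Among these were regions at SRPRB, which encodes a subunit of the signal recognition particle receptor, at the iron transporter gene SLC11A2, at SYS1, at the zinc-finger factor gene ZBTB20 and at the lncRNA gene CHASERR. The ZBTB20 region (chr3:114624801-114625000) was 310300 bp from the outer ends of any protein-coding gene, so it marks a start deep inside a long gene. These examples were chosen after their values were seen.

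A single microRNA hairpin of 1562 was overlapped. It was MIR26B, inside CTDSP1, a gene of a phosphatase that acts on RNA polymerase II. The region at chr2:218402701-218402900 covers the last 22 bp of the hairpin (chr2:218402646-218402722, plus strand), and lies 0.8 kb from an enzalutamide region and 4.6 kb from an OSU-ERb-12 region. The mature forms are shown because they identify the only microRNA whose hairpin was overlapped, with the seed (bases 2 to 8) in capitals.
hsa-miR-26b-5p: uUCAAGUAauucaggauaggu
hsa-miR-26b-3p: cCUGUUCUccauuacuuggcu
The seeds of the pair differ. The region overlaps part of the 3p form (218402692 to 218402712) and starts beyond the end of the 5p form (218402657 to 218402677). In all, 6 hairpins lay within 1 kb of a combination-only distal region. The other 5, each beside a region and overlapped by none, were MIR4735 at 69 bp, MIR4652 at 227 bp, MIR6758 at 887 bp, MIR133A2 at 911 bp and MIR6872 at 953 bp.

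The combination-only distal regions were narrow. Their widths ran from 200 to 650 bp with a median of 200 bp and a mean of 222.8 bp, and together they covered 931.6 kb. Of them 2993 (71.6%, 70.2 to 72.9) had the shortest width, 200 bp, 705 (16.9%) had 250 bp, 306 (7.32%) had 300 bp and 177 (4.23%, 3.64 to 4.89) were wider. Shared distal regions had the shortest width in 58.0% of cases (55.0 to 60.9) and exceeded 300 bp in 9.60%. Among the single-agent regions away from gene ends, the shortest width made up 46.7% for enzalutamide and 66.2% for OSU-ERb-12, and 22.7% and 5.84% exceeded 300 bp. The intervals of combination-only and shared distal regions do not overlap for either share. A wide region has more bases in which to meet a region of another list, so these widths are not independent of the criterion of no overlap.

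The widest region, 650 bp, lay in RYR1, the gene of the calcium release channel of skeletal muscle (chr19:38543851-38544500), 43.1 kb from an end of a gene and 28.4 kb from the nearest enzalutamide region. A second one of 650 bp lay on chromosome 8 (27083751 to 27084400), 150.9 kb from the stathmin family gene STMN4. The next were 600 bp, 2.8 kb outside FRMD8 (chr11:65416301-65416900), 550 bp, inside the selenocysteine elongation factor gene EEFSEC (chr3:128159701-128160250), and 500 bp, 129.8 kb from the mitochondrial ribosomal protein gene MRPL15 (chromosome 8, 54278351 to 54278850). The closest gap between these 5 and a single-agent region was 2450 bp, at FRMD8.

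Both limits of the rule cut through a continuum. Just inside, 18 combination-only distal regions had no base between them and a single-agent region. Just outside, 49 combination regions counted as shared on a largest overlap of 50 bp, the smallest overlap that the 50 bp steps of the lists allow. The region closest to a gene end lay 1001 bp from it (chromosome 5, start 1316401) and the farthest of those left out as gene-end regions 999 bp. Between 1000 and 1500 bp lay 121 of the kept regions, and between 500 and 1000 bp lay 144 of the combination-only regions at gene ends.

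Relative to genes, the regions divided almost evenly between the bodies of protein-coding genes and the rest of the genome. Of the 4181, 2138 (51.1%, 49.6 to 52.7) overlapped a protein-coding gene body, 564 (13.5%, 12.5 to 14.6) only another annotated gene, and 1479 (35.4%, 33.9 to 36.8) no annotated gene. The annotation gives gene bodies without exons, so exonic, intronic and UTR positions were not separated. Shared distal regions gave 53.7%, 13.8% and 32.5% in the same 3 places, enzalutamide regions away from gene ends 50.0%, 14.2% and 35.8%, and OSU-ERb-12 regions 50.4%, 14.0% and 35.6%. All 4 classes were above the 40.5% of bases away from gene ends that protein-coding bodies take up, and below the 45.9% that lie in no gene. The bases were counted over whole chromosomes, gaps in the assembly included. Stretches that no read can reach thus add to the 45.9% and lower the 40.5%. The share of combination-only regions in protein-coding bodies therefore lay within a few points of the other classes. It was apart from that of the bases so counted, by a distance that the gaps make larger.

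**Figure D1:**
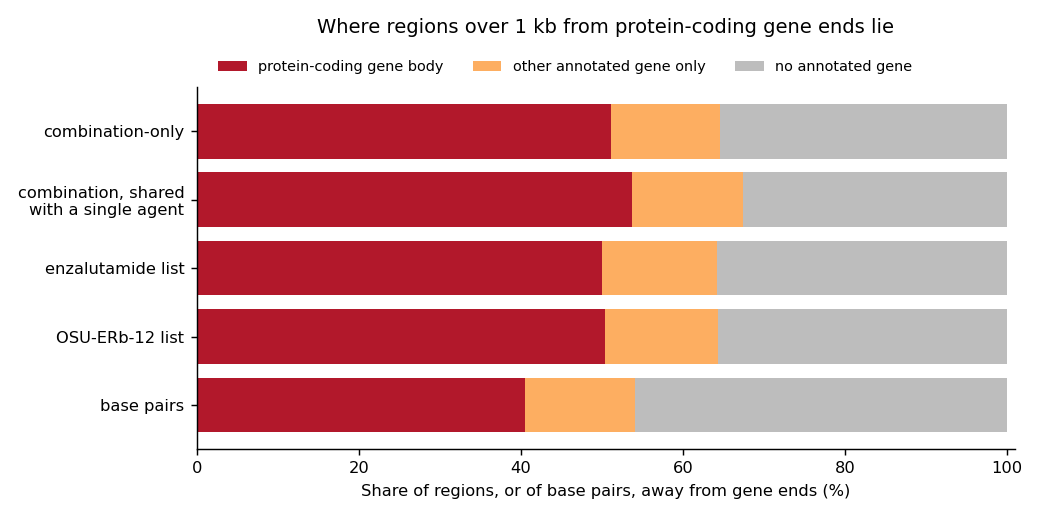
Share (%) of regions over 1 kb from the ends of protein-coding genes that overlap a protein-coding gene body, only another annotated gene, or no annotated gene, for combination-only regions (4181), shared combination regions (1094), enzalutamide regions (19645) and OSU-ERb-12 regions (16480), with the share of base pairs below. The 4 region classes have 50.0 to 53.7% in protein-coding bodies, against 40.5% of bases, gaps in the assembly included.

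Of the 564 regions in other genes only, 489 (86.7%) lay in lncRNA genes, 47 in pseudogenes and 35 in transcribed pseudogenes, where a region can count in more than 1 kind. Genes of snRNA, snoRNA and tRNA had 1 region each. The counts per lncRNA gene that follow take in every combination-only distal region that overlaps the gene. Such a region can also lie in a protein-coding gene body, so these counts are not confined to the 564. The lncRNA gene with the most was CIBAR1-DT on chromosome 8, with 4 over 354.0 kb. LINC02981 (142.4 kb), LINC03036 (245.0 kb) and TSNAX-DISC1 (512.6 kb) held 3 each, and LINC-PINT, a lncRNA gene induced by p53, held 2 over 232.4 kb. These lncRNA genes were chosen after their values were seen.

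The distance to the nearest end of a protein-coding gene had a median of 29.4 kb (quartiles 9.87 and 89.6 kb). It was 1 to 5 kb for 608 regions (14.5%), 5 to 10 kb for 452 (10.8%), 10 to 50 kb for 1540 (36.8%), 50 to 100 kb for 626 (15.0%) and over 100 kb for 955 (22.8%). Shared distal regions lay closer, with 21.1% within 5 kb and a median of 23.5 kb. Enzalutamide regions had 16.3% within 5 kb and a median of 31.7 kb, and OSU-ERb-12 regions 13.4% and 34.7 kb. In the gene annotation used, 3 regions lay farthest from any protein-coding gene. Of these, 2 were near the end of the long arm of chromosome Y (56873901 to 56874100 and 56879551 to 56879800), over 31248 kb from CDY1. The other was on chromosome 20 (28644401 to 28644600), 2168.8 kb from LOC124904970. A gene that the annotation does not place on these chromosomes could make such distances shorter.

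Inside protein-coding genes the regions that the rule kept did not gather towards the start. Regions within 1 kb of protein-coding gene ends had been removed from every class compared, so the outermost 1 kb is not covered. For the 1665 with a known direction of the host gene, the first of 5 equal parts of the gene, counted from the 5′ end, held 18.4% (16.6 to 20.4), and the next held 19.5%, 19.9% and 20.4%. The last part held 21.7% (19.8 to 23.8). Shared distal regions had 24.0% in the first part and 18.3% in the last (480 regions), enzalutamide regions 22.8% and 17.5% (7953), and OSU-ERb-12 regions 20.2% and 20.4% (6578). Within 10 kb of the 5′ end of the host gene lay 15.7% of combination-only distal regions (14.0 to 17.5), 24.2% of shared distal regions (20.4 to 28.3), 20.1% of enzalutamide regions and 14.9% of OSU-ERb-12 regions. Within 10 kb of the 3′ end lay 16.6% of the combination-only distal regions. Beyond the outermost 1 kb, the 2 ends of host genes were thus about equally represented among them.

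**Figure D2:**
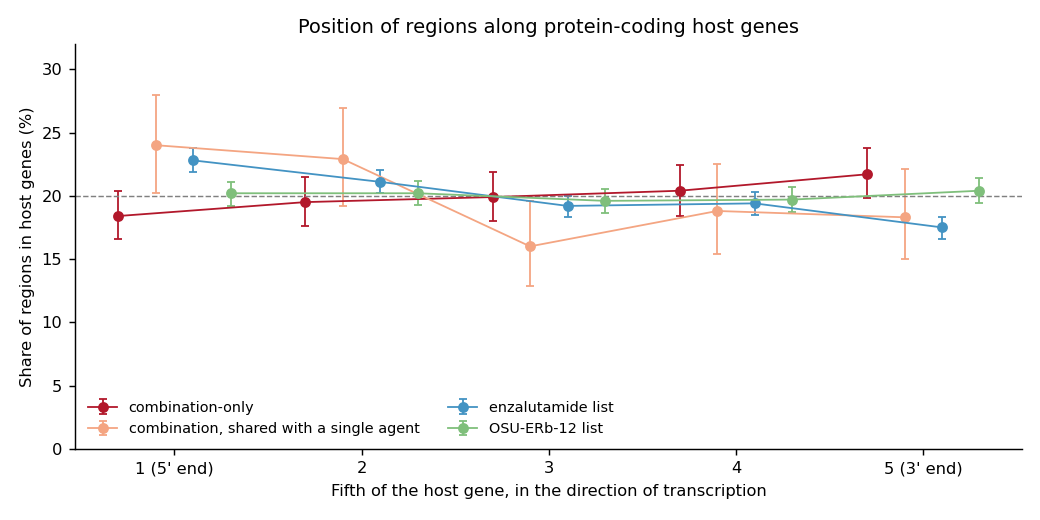
Share (%) of regions within protein-coding genes that fall in each of 5 equal parts of the host gene, from the 5′ end (left) to the 3′ end, for combination-only and shared distal combination regions and for both single-agent lists away from gene ends. Bars are exact binomial 95% intervals and the dashed line marks equal parts. Combination-only regions go from 18.4% in the first part to 21.7% in the last, while shared regions have 24.0% and 18.3%.

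The same contrast appeared at starts inside genes and at noncoding genes. A start of a coding or lncRNA gene lay within 1 kb of 126 combination-only distal regions (3.01%, 2.52 to 3.58). For shared distal regions this was 95 of 1094 (8.68%, 7.08 to 10.5), for enzalutamide regions 6.71% and for OSU-ERb-12 regions 2.65%. Overlap with the 300-base start windows was 0.861% for combination-only and 3.66% for shared distal regions, 2.79% for enzalutamide and 0.813% for OSU-ERb-12. On both measures the combination-only distal regions stood nearer to the OSU-ERb-12 list than to the enzalutamide list, and away from the combination regions that a single agent also listed. Overlap with the single-agent lists was a criterion, and the enzalutamide list is itself richer at starts, so this contrast with shared regions is a description of how the classes were divided.

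Host genes were long. Their median length was 119 kb (quartiles 48.3 and 292 kb), and 1187 of the 2138 regions in genes (55.5%) lay in a gene over 100 kb. The median over all protein-coding genes was 24.1 kb, with 16.7% over 100 kb, but a base drawn from protein-coding genes comes from a gene with a median of 172 kb. Regions of the other classes had median hosts of 122 kb (shared distal), 133 kb (enzalutamide) and 144 kb (OSU-ERb-12).

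Within 1 kb of a region of either single-agent list lay 258 combination-only distal regions (6.17%, 5.46 to 6.94). The median distance was 29.0 kb to the nearest enzalutamide region (quartiles 10.9 and 65.4 kb), 32.3 kb to the nearest OSU-ERb-12 region (12.7 and 73.8 kb) and 15.9 kb to either (5.85 and 35.0 kb). Within 1 kb of an enzalutamide region lay 154 (3.68%) and within 1 kb of an OSU-ERb-12 region 118 (2.82%), with 14 within 1 kb of both. Within 10 kb of either lay 1592 (38.1%, 36.6 to 39.6), and over 100 kb from both lay 202 (4.83%). The nearest single-agent region was an enzalutamide region for 2239 (53.6%), an OSU-ERb-12 region for 1888 (45.2%) and equally near in both lists for 54. The enzalutamide list is the longer one, 25317 regions against 17931 for OSU-ERb-12, so a nearer enzalutamide region is no sign of closeness to that treatment. Combination-only regions at gene ends lay within 1 kb of an enzalutamide region in 21.9% of cases and of an OSU-ERb-12 region in 7.35%, with a median of 6.55 kb to either. All these distances follow in part from the criterion of no overlap. Whether they differ from those of regions placed at random was not tested.

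**Figure D3:**
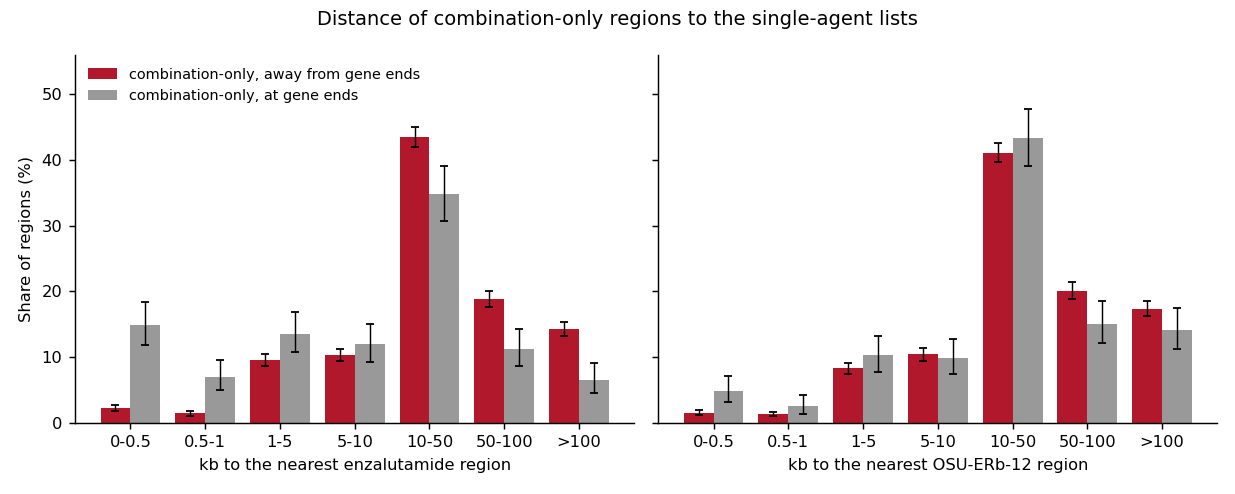
Share (%) of combination-only regions by distance (kb) to the nearest enzalutamide region (left) and OSU-ERb-12 region (right), for regions away from gene ends (4181, red) and at gene ends (517, grey), with exact binomial 95% intervals. Away from gene ends 3.68% lay within 1 kb of an enzalutamide region, against 21.9% at gene ends.

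Chromosomes differed several-fold in how densely they carried the regions. The mean was 1.35 per Mb. Here and below, densities are per Mb of the reference sequence. They were not adjusted for how many copies of each chromosome, or part of it, the cells carry, which the sources used here do not give. Whether copy number shaped these densities was not tested. Chromosome 12 had the highest density, 332 regions or 2.49 per Mb (2.23 to 2.77), followed by chromosomes 7 (2.23), 19 (2.20), 3 (2.15), 8 (2.15) and 1 (2.11). Among the autosomes chromosome 13 had the lowest, 0.630 per Mb (0.493 to 0.793). Chromosomes 1, 3, 7, 8 and 12 together held 1952 of the regions (46.7%, 45.2 to 48.2) on 28.7% of the bases, at 2.21 per Mb against 1.11 on the other autosomes, a ratio of 1.99. That ratio was 1.92 for shared distal regions, 1.53 for enzalutamide regions and 2.38 for OSU-ERb-12 regions away from gene ends, so the excess on these 5 chromosomes was in all 4 classes. These 5 were taken from earlier results on the same lists. Chromosome 19, denser here than 3 of them, is counted with the other autosomes.

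On a smaller set of chromosomes the combination-only distal regions were relatively denser than the regions of either single-agent list away from gene ends. Relative to each list's own mean, chromosome 17 had 1.48 (1.26 to 1.72) for combination-only distal regions, 1.14 for enzalutamide and 1.02 for OSU-ERb-12. Chromosome 20 had 1.49 (1.25 to 1.77), 1.04 and 1.15 in the same order, and chromosome 22 had 1.35 (1.09 to 1.65), 0.974 and 1.05. For chromosome 16 the values were 1.15 (0.975 to 1.36), 0.946 and 0.870. On chromosome 19 all 3 were high, at 1.63, 1.48 and 1.40. The other combination regions, at gene ends or shared, had like shares on most of these chromosomes. They include regions at gene ends, which the single-agent values leave out, so they are not set against those values. Chromosome 17 held 3.99% of the combination-only distal regions and 4.16% of the other combination regions, on 2.70% of the bases. For chromosome 20 it was 3.11% and 3.19% on 2.08%, and for chromosome 16 3.37% and 3.63% on 2.92%. Chromosome 22 held 2.22% and 1.89% on 1.65%, and chromosome 19 3.09% and 5.76% on 1.90%.

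Chromosome X was nearly empty. It held 13 of the 4181 regions (0.311%, 0.166 to 0.531), or 0.0833 per Mb, although it has 5.05% of the bases. Shared distal regions had 21 there (1.92%, 1.19 to 2.92), and 2.13% of the combination-only regions at gene ends lay on it. Enzalutamide regions had 2.21% there (2.79 per Mb) and OSU-ERb-12 regions 0.485% (0.513 per Mb). Of the 13 regions 8 lay in protein-coding genes, among them SAT1, which encodes an enzyme of polyamine breakdown, and DUSP9, of a phosphatase of MAP kinases. These genes were chosen after their values were seen. Chromosome Y held 5.

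Density also varied within chromosomes. On chromosome 1 the first 120 Mb held 196 regions, 1.63 per Mb (1.41 to 1.88), and the stretch from 140 Mb to the end 330, or 3.03 per Mb (2.71 to 3.37). For enzalutamide the 2 stretches had 7.14 and 12.5 per Mb, and for OSU-ERb-12 5.49 and 15.1. Of 298 full bins of 10 Mb over the genome 25 held no region and the median was 10. Some of the 25 were empty in the single-agent lists as well, for example 0 to 10 Mb of chromosome 13, and others were on chromosome X. The fullest bin, with 51, was 120 to 130 Mb of chromosome 3, which includes EEFSEC, KALRN and MCM2, and the next, with 47, was 150 to 160 Mb of chromosome 1.

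**Figure D4:**
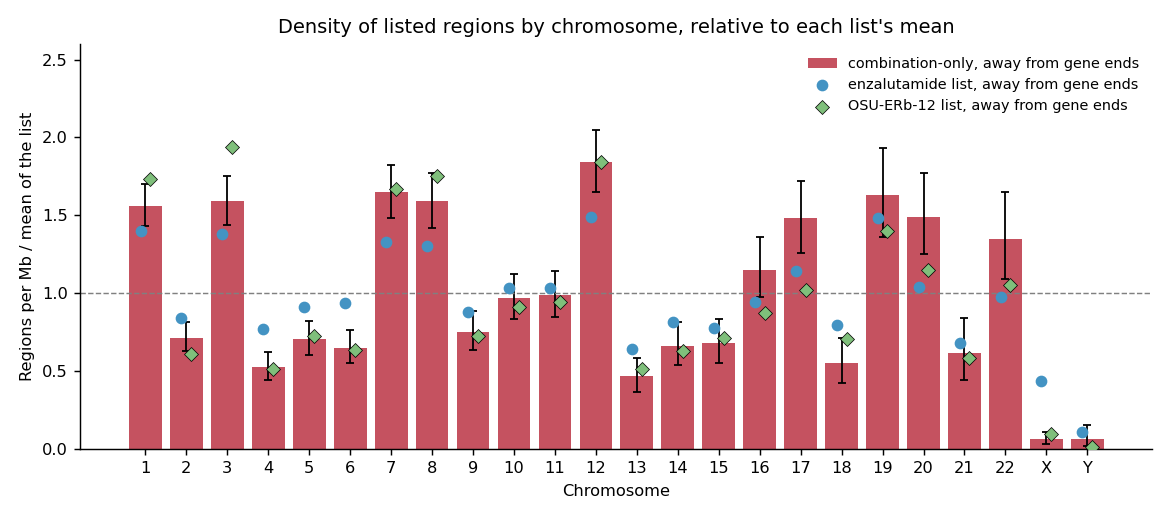
Regions per Mb on each chromosome divided by the mean of the same list, for combination-only regions away from gene ends (bars, with exact Poisson 95% intervals), the enzalutamide list (circles) and the OSU-ERb-12 list (diamonds), both away from gene ends. Bars exceed 1 on chromosomes 1, 3, 7, 8 and 12 as do both lists, exceed both lists on 16, 17, 19, 20 and 22, and are lowest on X and Y.

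The regions were mostly solitary. Neighbours were a median of 288 kb apart, the closest 300 bp and the farthest 50.5 Mb. With neighbours within 10 kb joined, 3886 stood alone, and 295 (7.06%) formed 140 pairs and 5 triplets. The largest cluster had 3 regions, against 2 for shared distal regions, 15 for enzalutamide and 6 for OSU-ERb-12, and 22.4% and 18.6% of the single-agent regions away from gene ends were in clusters. The single-agent lists hold 19645 and 16480 such regions and are denser throughout, so these shares are not on an equal footing.

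Of the 5 triplets, 3 reach into a gene. In XYLT2, the gene of a xylosyltransferase that starts proteoglycan chains, 2 regions lay in the gene (chr17:50354851-50355050 and chr17:50355451-50355750) and 1 was 2315 bp beyond it (chr17:50363501-50363700). In CPXM1, a gene of the carboxypeptidase X family, 1 lay in the gene (chr20:2795351-2795550) and 2 lay 4823 and 5923 bp upstream of it (chr20:2805451-2805750 and chr20:2806551-2806800). In LSM5, which encodes a U6 RNA-binding protein, 1 lay in the gene (chr7:32489551-32489850) and 2 lay 5487 and 9887 bp outside it. The other 2 triplets are on chromosome 1, at 162417401 to 162425250, 5264 bp from SH2D1B, an adaptor gene of immune cells, and at 177421851 to 177433250, 139428 bp from BRINP2, a neural gene. No single-agent region lay within 4 of the 5 spans, and 1 enzalutamide region lay within the LSM5 span.

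A gene was said to hold a region if the region overlapped its body or the 10 kb on either side, called the locus. By this measure 2451 of 20037 protein-coding genes (12.2%) held a combination-only distal region, and 2542 of the 4181 regions (60.8%, 59.3 to 62.3) lay in such a locus. A single region was held by 2042 of these genes (83.3%), 2 by 303, and 3 or more by 106. Of the 2451 genes 1830 (74.7%) also held an enzalutamide region and 1521 (62.1%) an OSU-ERb-12 region, where 58.3% and 39.1% of all protein-coding genes did. Both were held by 1243 (50.7%), and neither by 343 (14.0%). The shares of all protein-coding genes with both or with neither were not computed. The regions themselves overlapped no single-agent region, while most of their genes had one elsewhere in the locus. Most protein-coding genes of any kind did so too, since an enzalutamide region alone was in 58.3% of loci. These genes had longer loci, with a median of 81.2 kb against 44.1 kb for all genes, and longer loci hold more regions of any list. Between the shortest and the longest of 5 equal groups of genes by locus length, the share with a combination-only distal region went from 4.44% to 25.7%, while the density was highest in the middle group, at 2.46 per Mb, and lowest in the longest, at 1.45 per Mb.

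The genes with most regions were long. RBFOX3, a neuronal splicing factor gene, held 6 over a 596.2 kb locus on chromosome 17, all in the gene, between 48.8 and 543.5 kb after its 5′ end. A further 11 genes held 5 each, of which the 9 with the most regions per Mb of locus are described here and CSMD1 with its list. The last, the receptor phosphatase gene PTPRN2, held its 5 in the gene, with 5 enzalutamide and 3 OSU-ERb-12 regions in the locus. EPHB1, which encodes an ephrin receptor kinase, held its 5 between 116.7 and 443.1 kb after its 5′ end. The guidance receptor gene PLXNA4, the neural adhesion gene DSCAML1 and KALRN, the gene of a guanine nucleotide exchange factor of synapses, held theirs within the gene, as did MYRIP, a gene of a myosin and Rab binding protein, RPS6KC1 and the cation exchanger gene SLC24A3. CTIF, which encodes a translation initiation factor, had 4 in the gene and 1 that lay 3833 bp outside. In these loci the single-agent lists also had regions, for example 10 enzalutamide and 15 OSU-ERb-12 regions at KALRN, and 2 of each at SLC24A3.

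FAM53A was both among the genes with most regions and among the densest. Its 5 lay on chromosome 4 at 1567151 to 1567350, 1614851 to 1615050, 1624301 to 1624500, 1639051 to 1639250 and 1670701 to 1670950, 4 of them inside the gene, with a density of 37.9 per Mb of locus. The region starting at 1624301 lay 0.2 kb from an enzalutamide region. The densest loci among genes with at least 3 regions were CPXM1 (113 per Mb), LSM5 (100 per Mb) and XYLT2 (85.6 per Mb), the 3 triplet genes. ASPG, an asparaginase gene, followed with 60.1 per Mb, its 3 regions all in the gene. CHID1 had 44.5 per Mb, the dynein adaptor gene BICD2 40.8, the Polycomb gene PCGF3 35.6, and MIDEAS, a gene of a histone deacetylase complex, 31.5. Of the 3 CHID1 regions 1 lay in the gene, and the others lay 2208 and 7158 bp outside. An end of another protein-coding gene was nearer to these, at 1460 and 6410 bp. The BICD2 regions lay 2.1, 15.1 and 25.7 kb after its 5′ end, all in the gene. The mean density over all protein-coding loci was 1.71 per Mb.

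Of the 48 nuclear receptor genes 14 held a combination-only distal region (29.2%, 17.0 to 44.1), against 12.2% of all genes. The list's median locus, 70.9 kb, is longer than that of all genes, and per Mb of locus its density was 2.67 (1.61 to 4.16), an interval that includes the 1.71 of all genes. The difference in share was not tested. PPARD, the gene of a fatty acid receptor, held 3, all inside the gene (chr6:35368451-35368650, chr6:35401601-35401950 and chr6:35412851-35413050), 26.0, 59.2 and 70.4 kb after its 5′ end. They were 46.8, 13.4 and 2.4 kb from the nearest enzalutamide region and at least 58.1 kb from an OSU-ERb-12 region. RARG, RARB and NR3C2 held 2 each. RARG and RARB encode retinoic acid receptors and NR3C2 the mineralocorticoid receptor. The RARG regions both lay upstream, 4991 and 7441 bp outside the gene (chr12:53237201-53237400 and chr12:53239651-53239900), and those of RARB 17.4 and 620.3 kb after the 5′ end. An end of another protein-coding gene was nearer to both RARG regions, at 4499 and 1999 bp. The NR3C2 regions lay 297.5 and 336.8 kb after its 5′ end, at least 141.9 kb from an OSU-ERb-12 region.

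Of the oestrogen receptor genes, ESR1 held a combination-only distal region. It lay at chr6:151652351-151652550, 4121 bp upstream of the gene, 3.2 kb from an enzalutamide region and 157.7 kb from the nearest OSU-ERb-12 region. ESR2, the gene of the receptor that OSU-ERb-12 binds, held none, with 3 enzalutamide and 2 OSU-ERb-12 regions in its locus. The pioneer factor genes FOXA1 and HOXB13 held no combination-only distal region either, nor did KLK3 (prostate-specific antigen), TMPRSS2 and FKBP5, all of them regulated by androgen. FOXA1 and HOXB13 each have 1 combination region that is not of this class.

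Of 30 androgen response genes 2 (6.67%, 0.818 to 22.1) had a combination-only distal region, against 12.2% of all genes. For PMEPA1, a negative regulator of TGF-beta signalling, it lay 3428 bp upstream (chr20:57714901-57715150), 1.5 kb from an enzalutamide and 1.4 kb from an OSU-ERb-12 region. For the zinc-finger gene ZBTB10 it lay in the gene. An enzalutamide region was held by 24 of the 30 and an OSU-ERb-12 region by 17, where 58.3% and 39.1% of all genes held one. With 50 kb on either side of the gene in place of 10 kb, 7 of the 30 (23.3%) held a combination-only distal region, against 25.6% of all genes. Oestrogen response genes gave 3 of 20 (15.0%, 3.21 to 37.9), namely CA12, a carbonic anhydrase gene, RARA, of a retinoic acid receptor, and KCNK5, of a potassium channel, each with 1 inside the gene. Neither the 16 glucocorticoid response genes nor the 18 immediate early and AP-1 genes held any, for which the upper limits of the intervals were 20.6% and 18.5%. With 50 kb on either side 4 of the 16 (25%) and 3 of the 18 (16.7%) did. The intervals of all 4 lists include the share of all genes, so at these sizes no difference from it was detectable.

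**Figure D5:**
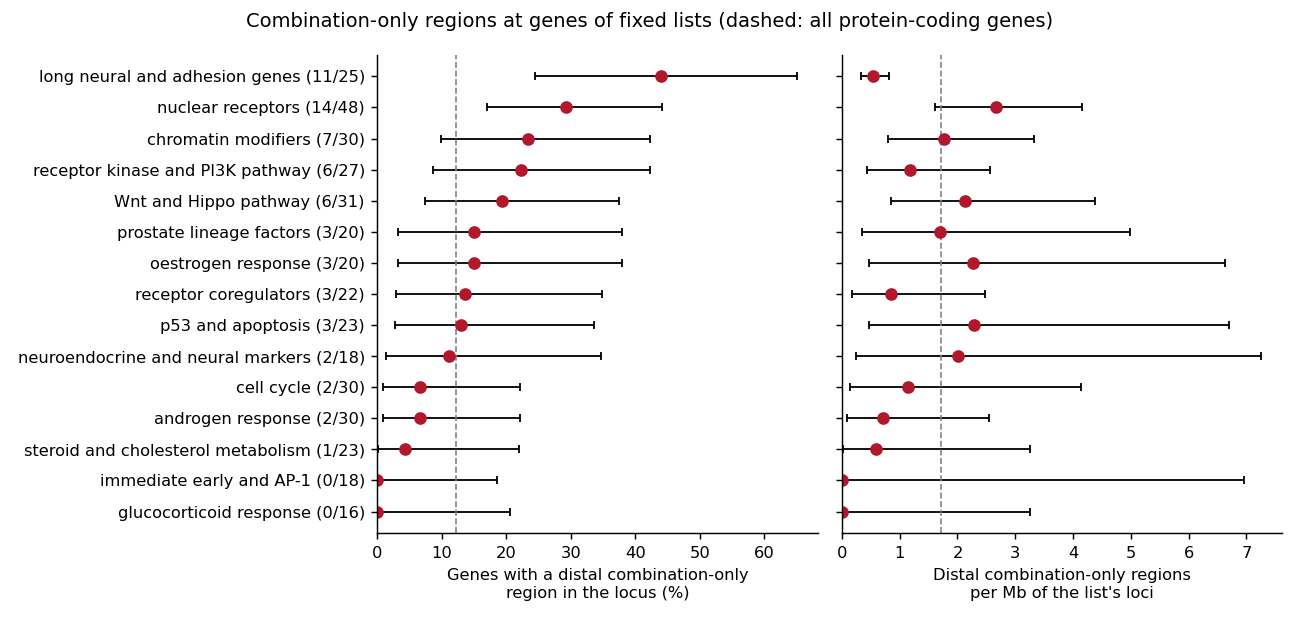
For 15 gene lists, the share (%) of genes with a combination-only distal region in the locus (left, exact binomial 95% intervals, counts beside the names) and the number of such regions per Mb of the list's loci (right, exact Poisson 95% intervals). Dashed lines mark all protein-coding genes, 12.2% and 1.71 per Mb; nuclear receptors lie at 29.2% and 2.67 per Mb, and long neural and adhesion genes at 44.0% and 0.533 per Mb.

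Signalling and chromatin lists lay between these. Of 31 Wnt and Hippo genes 6 (19.4%) held one. AXIN2, which encodes a scaffold that restrains Wnt signalling and is itself a Wnt target, held 2 (chr17:65551751-65551950 and chr17:65556301-65556500), both in the gene and at least 53.4 kb from any single-agent region. RNF43, the gene of a ubiquitin ligase that removes Wnt receptors, and the R-spondin receptor genes LGR4 and LGR5 held 1 each. Of 27 receptor kinase and PI3K genes 6 (22.2%) held 1 each, among them ERBB2, FGFR1, FGFR2 and AKT2. The FGFR2 region (chr10:121491001-121491200) lay 107.4 kb after the 5′ end of this growth factor receptor gene, 117.5 kb from the nearest enzalutamide region. Of 30 chromatin modifiers 7 (23.3%) did, led by HDAC4, a histone deacetylase gene, with 3 inside the gene, and with 1 each at the DNA methyltransferase gene DNMT3A, the histone methyltransferase gene DOT1L and the demethylase gene KDM5B. The intervals of these 3 lists include 12.2%.

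The remaining 6 lists had 4.35 to 15.0% of their genes with a combination-only distal region, all with intervals that include the 12.2% of all genes. Of prostate lineage factors 3 of 20 held 1 each, the epithelial factor GRHL2, the ETS factor ERG and RUNX1, all inside the gene. The GRHL2 region lay 0.7 kb from an enzalutamide and 1.1 kb from an OSU-ERb-12 region. Receptor coregulators gave 3 of 22, the coactivator NCOA3, the acetyltransferase KAT2B and the remodelling ATPase SMARCA4. For p53 and apoptosis genes it was 3 of 23 (BCL2L1, SESN2 and ZMAT3) and for cell cycle genes 2 of 30 (CDK6 and MCM2). The list labelled neuroendocrine and neural markers gave 2 of 18 (ENO2 and POU2F3). The ENO2 region lay 2329 bp outside the gene, and an end of another protein-coding gene was nearer, at 1978 bp. In steroid and cholesterol metabolism 1 of 23 held one (6, or 26.1%, with 50 kb on either side), SRD5A2, the gene of a 5-alpha-reductase that makes dihydrotestosterone. This region (chr2:31589451-31589700) lay in the gene, 205.9 kb from the nearest enzalutamide and 95.2 kb from the nearest OSU-ERb-12 region.

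Long neural and adhesion genes had the highest share and one of the lowest densities. Of 25 genes 11 (44.0%, 24.4 to 65.1) held at least 1, but over 39.4 Mb of loci the density was 0.533 per Mb (0.330 to 0.815), against 1.71 per Mb for all genes. CSMD1 held 5 over 2079.6 kb and the splicing factor gene RBFOX1 4 over 2493.6 kb, and MAGI2 and SORCS2 held 2 each. Of the same 25 genes 24 held an enzalutamide and 23 an OSU-ERb-12 region, where 58.3% and 39.1% of all genes did.

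Over all 15 lists 62 of 368 genes (16.8%) held a combination-only distal region, against 12.2% of all genes. This difference in share was not tested, and longer loci hold more regions of any list. Of the 62 genes 11 were long neural and adhesion genes, whose loci had 0.533 regions per Mb against 1.71 for all genes. In 3 of the 62 (4.84%), AXIN2, FGFR2 and SRD5A2, the locus held no region of either single-agent list, against 14.0% of all genes with a combination-only distal region.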

How the data were processed

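ATAC-seq lists of 22Rv1 cells were used, 1 deposited list for each of 3 treatments, with no column for single samples. Per the labels' protocols ATACSeqQC was used to take out the nucleosome-free reads. The submitters' processing notes name FastQC, Trimmomatic and hg38. Not given in the sources used here are the caller and its threshold, how replicates were pooled, the test against vehicle and any shift for the transposase, each of which can change what is listed. A tag in the names of the lists is defined by no source, so it was not read as a direction. The deposited score is 0 in every row, so regions could not be ranked. Samples treated with oestradiol were not analysed here.

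Positions were compared with the RefSeq annotation of GRCh38.p14 (20037 protein-coding genes on 24 chromosomes) and are printed 1-based. Regions were shared if they overlapped by 1 bp or more, neighbours were joined within 10 kb, and a locus adds 10 kb to both ends of a gene. Direction of transcription and start windows came from the RefSeq start table. Motifs and base composition were planned for all regions, but no genome was at hand, so they were read in start windows alone. The printed sequences follow that limit and not the planned choice. Shares have Clopper-Pearson and densities Poisson 95% intervals (SciPy 1.17.1, pandas 2.3.3, Python 3.11.15). The procedures were tested on simulated data. Other settings for overlap, gene ends, merging, chromosomes, placement, distance and locus were tried.

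The regions, the gene lists and the naming rule were chosen with earlier results of these data known. Named are the 10 genes with most regions (ties by regions per Mb of locus), up to 4 genes per list, preset genes that include FKBP5, TMPRSS2, KLK3, HOXB13, FOXA1, ESR2 and ESR1, the genes at the 5 largest clusters, the 5 widest and the 3 farthest regions, and the 10 densest loci with at least 3 regions, without overlapping loci. Not every gene that meets the rule is reported here. Other names come from overlap with a start window or microRNA, or are marked as chosen after their values were seen.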

Additional observations from a re-analysis of the deposited data

How the results depend on the processing

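The number of combination-only distal regions, 4181, was 4224 when at least 50% of the shorter region had to overlap, 4047 when neighbours within 500 bp also counted as shared, 3573 with a 5 kb window at gene ends, 3918 with the ends of all annotated genes, 4160 after merging within 1 kb and 4163 on autosomes alone. Changed definitions moved some shares by construction: 88.4% of regions were 250 bp or narrower (71.6% at the shortest width), 21.9% lay within 5 kb and 83.5% within 50 kb of a single-agent region (38.1% within 10 kb), and clusters numbered 80 with a 5 kb and 504 with a 50 kb joining distance (145 with 10 kb). With a 5 kb window at gene ends 49.2% lay in protein-coding bodies (51.1%), because regions near the ends were removed. Genes holding a region numbered 5131 with 50 kb on either side (2451 with 10 kb; 1754 for the gene body alone, 2375 when neighbours within 500 bp counted as shared). Of 76 named genes 68 did or did not hold a region as before with the body alone, 73 with 50 kb and 76 with the 500 bp rule. Of the 15 gene lists 11 had over 1.5 times as many genes with a region with 50 kb, and 2 had fewer by that margin with the body alone. Nuclear receptors had 22.9% with the body alone (8.75% of all genes) and 45.8% with 50 kb (25.6% of all genes). With 50 kb the counts were 7 for androgen response, 4 for glucocorticoid response, 3 for immediate early and AP-1 genes and 6 for steroid and cholesterol metabolism. Base composition and motif settings were not run, for want of a genome. Replicates could not be left out, since the lists have no values per sample. No paired analysis was possible because no list gives values of single samples.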
